A study of Mus musculus with 8 samples.

Results

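The Rab GTPases are described here in dendritic cells of 2 tissues. Members were all genes whose symbol is Rab followed by a number and at most 1 letter, taken from probe sets that name exactly 1 gene, with the brightest probe set kept for each gene. The rule found 59 Rab genes among the 19938 genes measured. The rule reads gene names and, among probe sets of 1 gene, brightness. Expression was measured on Affymetrix mogene 1.0 ST arrays in myeloid dendritic cells sorted from bone marrow (4 arrays) and classical dendritic cells sorted from spleen (4 arrays), with both tissues taken from each of 4 mice. All mice of both groups were 8 weeks old and heterozygous for CX3CR1-gfp, an allele that puts green fluorescent protein in place of the fractalkine receptor, so no group is free of the reporter. The sources used here do not name the surface markers of the sort. Total RNA of sorted cells was amplified from between 100 pg and 2 ng.

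Rab proteins are small GTPases that mark the membranes of the cell and steer vesicles between them. An exchange factor loads a Rab with GTP, the loaded Rab recruits effectors such as tethers and motors, and a GTPase activating protein ends the signal. Lipid groups added at the C-terminus anchor Rabs in membranes, and the GDP dissociation inhibitors (GDI) draw them out again. In dendritic cells this traffic carries captured antigen through phagosomes and late endosomes, and peptide-loaded molecules to the surface.

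The labelled cell type was checked against 9 classical dendritic cell markers, of which 6 were lower and none higher in bone marrow. H2-Ab1, Cd74 and Batf3 did not pass, with mean intensities of 15350, 12960 and 1676 in bone marrow and 14680, 12580 and 1760 in spleen. Spint1 (171.5 against 2064), Ccr7 (227.5 against 894), Zbtb46 (213.7 against 520), Flt3 (1967 against 4078), Dpp4 (1901 against 2833) and Itgax (6409 against 8432) were lower in bone marrow. Summed over the 9, which H2-Ab1 and Cd74 dominate, intensities were 39020 to 41950 in bone marrow and 45580 to 49480 in spleen. All 13 neutrophil markers were higher in bone marrow, with a summed intensity of 21830 to 29870 in its arrays and 1870 to 2142 in spleen. Of 12 macrophage markers 9 were higher and none lower (26570 to 36840 against 5945 to 6825), and of 7 classical monocyte markers 6 were higher and none lower (20860 to 22600 against 8403 to 9400). Of 6 basophil, mast cell and eosinophil markers 5 were higher (795.8 to 2392 against 306.1 to 341.7). B cell markers (4 of 7 lower, 1 higher), T and NK cell markers (5 of 7 lower) and plasmacytoid dendritic cell markers (3 of 5 lower, 1 higher) had sums of 1511 to 1655, 1071 to 1410 and 3317 to 4427 in bone marrow and 3137 to 3621, 2863 to 3151 and 2803 to 3323 in spleen. Of 3 erythroid markers 2 were higher, and of 4 platelet markers 1. These lists differed between the same arrays as every Rab described below, and their part in those differences was not tested. In such bulk samples, fewer cells of a type and less RNA per cell cannot be told apart. The arrays carry no detection call and have no true 0, so a dim gene may lie at background, where fold changes are compressed.

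Bone marrow cells had more mRNA of Rab44, Rab3d and Rab31 and less of Rab30, Rab37, Rab38 and Rab21 than spleen cells. Among the 59 Rabs, bone marrow was higher for 8 and lower for 4 at an adjusted p of 0.05 (limma, with Benjamini-Hochberg adjustment over all genes). That is 20.3% of the Rab genes, against 18.5% of all genes tested, so the share of called Rabs lay near the background of this comparison. The 18.5% includes dim genes, and the shares set against it here and below are not matched for brightness. The arrays of the tissues did not overlap for 16 of the 59 Rab genes, 11 higher and 5 lower. Over all genes they did not overlap for 4100 of 19938 (20.6%), and the difference in share was not tested. By direction the background of calls was 9.26% higher and 9.2% lower. The median log2 fold change (bone marrow minus spleen) was 0.07 over the Rab genes and -0.01 over all genes. Of the 12 calls, 9 held in all 15 alternative settings of the analysis, namely Rab44, Rab3d, Rab31, Rab20 and Rab29 (higher) and Rab21, Rab38, Rab37 and Rab30 (lower). The calls of Rab1a, Rab7b and Rab8b ended in some alternatives, which are named with each gene.

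**Figure D1:**
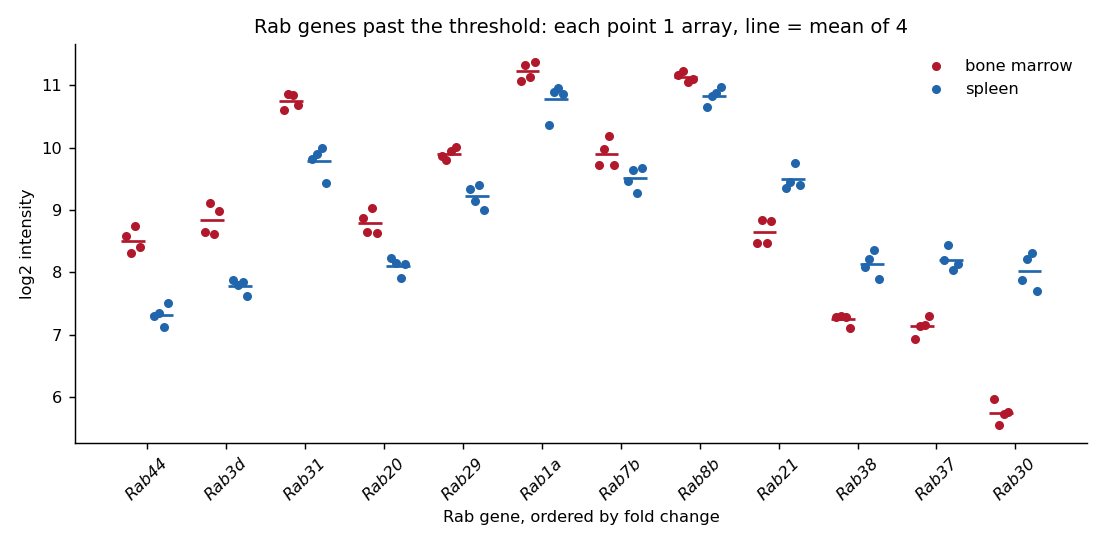
Log2 intensity (vertical axis) of the 12 Rab genes past the threshold (horizontal axis, ordered by fold change), with 1 point per array, bone marrow in red, spleen in blue and a line at the mean of 4 arrays. In each of the 12 genes the 4 arrays of one tissue lie above the 4 of the other, with the widest distance for Rab30 (53.7 against 260 in intensity). Over all genes this held for 3379 of the 3681 called.

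Promoter windows of 3 Rabs that were higher in bone marrow are shown because they are the 3 with the largest rise for which a window was at hand. They come from RefSeq on GRCm38.p6 and hold the 250 bases before the transcript start that the table gives, read 5′ to 3′ on the gene's strand. Capitals mark the GC box GGGCGG or its complement CCGCCC, the core of Sp family sites, and the palindrome CACGTG, an E-box. The windows are chr9:21918184-21918433 for Rab3d, chr17:65772753-65773002 for Rab31 and chr8:11478641-11478890 for Rab20, all on the minus strand.
Rab3d: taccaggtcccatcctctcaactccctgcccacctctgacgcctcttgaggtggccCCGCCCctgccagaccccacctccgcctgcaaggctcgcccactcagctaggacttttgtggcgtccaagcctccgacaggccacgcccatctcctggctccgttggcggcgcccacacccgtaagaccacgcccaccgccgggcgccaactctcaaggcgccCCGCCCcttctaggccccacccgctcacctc
Rab31: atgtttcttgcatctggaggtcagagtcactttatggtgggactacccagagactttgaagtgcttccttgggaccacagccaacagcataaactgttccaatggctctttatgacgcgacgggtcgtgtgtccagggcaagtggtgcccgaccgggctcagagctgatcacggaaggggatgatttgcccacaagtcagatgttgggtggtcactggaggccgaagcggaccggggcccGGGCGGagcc
Rab20: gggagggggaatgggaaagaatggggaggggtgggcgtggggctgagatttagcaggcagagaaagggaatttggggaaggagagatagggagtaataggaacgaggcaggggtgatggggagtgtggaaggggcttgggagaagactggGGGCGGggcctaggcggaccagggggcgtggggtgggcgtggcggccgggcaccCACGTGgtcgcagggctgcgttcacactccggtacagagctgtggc
The Rab3d window holds 2 GC boxes, the Rab31 window 1, and the Rab20 window 1 GC box and 1 E-box. Of the 59 Rab genes 48 had a window in the table, and Rab18, Rab26, Rab27b, Rab2a, Rab30, Rab36, Rab37, Rab38, Rab44, Rab4a and Rab7b had none. A GC box on either strand was present for 36 of 48 Rab genes (75.0%) and for 35.4% of the 27025 genes with a window. Median GC content was 61.6% in the Rab windows and 52.4% in all windows. CACGTG was found for 5 of 48 Rab genes (10.4%, against 6.86% of all genes), and among the 7 called Rabs with a window it was found for Rab20, which was higher, and for Rab21, which was lower. GAGGAA, a core bound by ETS family factors, was found for 8 of 48 (16.7%, against 25.9%). With N for any base, TGANTCA was found for 2 of 48 (4.17%, against 7.82%) and TTGCNNAA for 4 of 48 (8.33%, against 10.8%). Both strands were searched for each motif. A match describes these letters and is not evidence of binding.

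Of 12 Rabs of secretion and exocytosis, 3 were higher and 1 lower (33.3% called, against 18.5% of all genes, with no test of the difference for this or the other compartments). Rab44, a large atypical Rab with calcium-binding EF-hands, read 383, 318, 426 and 338 in bone marrow and 157, 162, 140 and 183 in spleen, in intensity and in the order of mice 1 to 4, as for all genes below. It was therefore higher in every bone marrow array (log2 difference 1.19 ± 0.11, SE, n = 4 arrays each, limma adjusted p = 4.5e-06). Rab3d, which sits on regulated secretory granules, read 399, 552, 391 and 504 in bone marrow and 236, 221, 231 and 196 in spleen. The lowest bone marrow array lay well above the highest spleen array (1.05 ± 0.12, limma adjusted p = 2.5e-05). The other Rab3 genes did not pass: Rab3a stood at 120 and 123, Rab3b at 29.4 and 29.4, and Rab3c at 32.0 and 33.8 in bone marrow and spleen. All 3 lay below the median gene of their array on all 8 arrays.

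Rab37, another Rab of secretory granules, moved the other way. It read 121, 141, 143 and 157 in bone marrow and 294, 346, 261 and 281 in spleen, so every spleen array was higher (log2 difference -1.07 ± 0.10, SE, n = 4 arrays each, limma adjusted p = 8.1e-06). Rab37 lay below the median gene on 3 of the bone marrow arrays, so the fold may be compressed. Rab8b, of exocytic transport to the plasma membrane, read 2302, 2388, 2124 and 2187 in bone marrow and 1602, 1812, 1878 and 1998 in spleen. The groups did not overlap, though by a small margin (0.31 ± 0.09, limma adjusted p = 0.024). Blocking on the replicate mouse ended the Rab8b call (limma adjusted p = 0.0585), and so did removing bone marrow array 1 or 2, or spleen array 1 or 2 (limma adjusted p from 0.0561 to 0.0788). Its paralog Rab8a leaned the other way, with 1463, 1852, 1473 and 2049 in bone marrow and 2266, 2346, 2337 and 1843 in spleen. The groups overlapped through spleen replicate 4, and Rab8a did not pass (-0.37 ± 0.12, limma adjusted p = 0.054). It did pass in 6 alternatives, among them without that array (-0.45, limma adjusted p = 0.02) and without bone marrow replicate 4 (-0.46, limma adjusted p = 0.0162). Rab27a, which docks lytic granules and in dendritic cells delivers the NADPH oxidase to phagosomes, stood at 304 and 316 (-0.05, 95% interval -0.36 to 0.25). Rab27b, Rab26 and Rab13 also did not pass, with log2 fold changes from -0.16 to 0.09.

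Among the 9 Rabs of early endosomes and phagosomes, 2 were higher and 1 lower (33.3% called, against 18.5% of all genes). Rab31, which carries cargo between the trans-Golgi network and endosomes, read 1550, 1868, 1839 and 1638 in bone marrow and 904, 954, 1021 and 692 in spleen. Its spleen arrays all lay below its bone marrow arrays (log2 difference 0.96 ± 0.12, SE, n = 4 arrays each, limma adjusted p = 6.1e-05). Rab20, a Rab of phagosome maturation, read 468, 402, 521 and 398 in bone marrow and 300, 283, 240 and 281 in spleen, again without overlap (0.69 ± 0.11, limma adjusted p = 0.00036). Rab21, which accompanies integrins through early endosomes, was lower in bone marrow. It read 354, 457, 355 and 452 there and 652, 700, 862 and 679 in spleen, a 1.79-fold difference (-0.84 ± 0.12, limma adjusted p = 0.00018).

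The Rab5 genes, the master Rabs of early endosome fusion, did not pass. Rab5a read 727, 820, 819 and 923 in bone marrow and 772, 715, 796 and 766 in spleen (log2 fold change 0.11, 95% interval -0.08 to 0.29). Rab5c had an interval from -0.07 to 0.27 and Rab5b one from -0.15 to 0.45, so a change beyond 1.5-fold lay outside the interval of each of the 3. Rab22a, the closest relative of Rab31 and a Rab of early and recycling endosomes used in cross-presentation, stood at 360 and 347 (0.05, 95% interval -0.14 to 0.24). Rab24, of autophagy, and Rab17, of epithelial transcytosis, had log2 fold changes of -0.23 and -0.01 and did not pass.

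Of 10 late endosomal and lysosomal Rabs, 2 were higher and 1 lower (30% called, against 18.5% of all genes). Rab29, which brings the kinase LRRK2 to Golgi and lysosomal membranes, read 928, 887, 986 and 1028 in bone marrow and 643, 566, 673 and 509 in spleen. All bone marrow arrays were above all spleen arrays (log2 difference 0.69 ± 0.10, SE, n = 4 arrays each, limma adjusted p = 0.00023). Rab7b, a Rab between late endosomes and the Golgi known to dampen Toll-like receptor signalling, read 842, 1011, 1168 and 844 in bone marrow and 708, 799, 620 and 817 in spleen. The gap between the groups was narrow (0.39 ± 0.12, limma adjusted p = 0.043). Blocking on the replicate mouse ended the Rab7b call (limma adjusted p = 0.0685), as did quantile normalization (0.0809) and removing bone marrow array 2 or 3, or spleen array 1, 2 or 3 (limma adjusted p from 0.051 to 0.131). Rab7, the main Rab of late endosome and phagosome fusion with lysosomes, read 2527, 2783, 2537 and 2749 in bone marrow and 2207, 2371, 2339 and 2146 in spleen. Its groups did not overlap either, but it missed the threshold (0.23 ± 0.08, limma adjusted p = 0.059) and passed it in 3 alternatives.

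Rab38, which with Rab32 builds melanosomes and other lysosome-related organelles, was lower in bone marrow. It read 156, 158, 156 and 137 there and 270, 295, 329 and 238 in spleen, a 1.86-fold difference with no overlap (log2 difference -0.89 ± 0.10, SE, n = 4 arrays each, limma adjusted p = 3.2e-05). Rab32 itself read 961, 1239, 1058 and 1250 in bone marrow and 1035, 1065, 1094 and 1069 in spleen. The tissues overlapped fully for Rab32 (0.07, 95% interval -0.13 to 0.28). Rab9, of late endosome to Golgi return, its relative Rab9b, Rab12, Rab34 and Rab36 did not pass, with log2 fold changes from -0.06 to 0.17.

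Of the 15 Rabs of the endoplasmic reticulum and Golgi, Rab30 was lower and Rab1a higher (13.3% called, against 18.5% of all genes). Rab30, a Golgi Rab, read 62.4, 46.9, 52.6 and 53.9 in bone marrow and 235, 296, 317 and 208 in spleen. It was 4.85-fold lower in bone marrow, the largest change of any Rab and the 48th largest fall among all 19938 genes (log2 difference -2.28 ± 0.13, SE, n = 4 arrays each, limma adjusted p = 8.7e-08). Its bone marrow values were below the median gene of each array, so the fold may be compressed. Rab1a, which moves vesicles from the endoplasmic reticulum to the Golgi, read 2158, 2573, 2236 and 2649 in bone marrow and 1319, 1909, 1991 and 1867 in spleen (0.45 ± 0.13, limma adjusted p = 0.024). Spleen replicate 1 was far below the other spleen arrays, and the call ended without bone marrow replicate 2 (limma adjusted p = 0.0663) or 4 (0.0688).

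Rab43, known for cross-presentation of cell-bound antigen by the cDC1 subset, did not pass. It read 1882, 1743, 1867 and 1872 in bone marrow and 2150, 2089, 2434 and 1891 in spleen. All spleen values were the higher ones, by a margin that did not survive adjustment (log2 difference -0.21 ± 0.09, SE, n = 4 arrays each, limma adjusted p = 0.13), except without spleen replicate 4 (-0.27, limma adjusted p = 0.0485). Rab39, another Rab linked to cross-presentation, stood at 149 and 151 (-0.02, 95% interval -0.19 to 0.14). Rab6a and Rab6b, of retrograde Golgi traffic, had log2 fold changes of 0.26 and -0.22 (limma adjusted p = 0.063 and 0.16). Rab1b, Rab2a, Rab2b and the other 6 genes of this compartment did not pass, with values between -0.12 and 0.28.

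None of the 9 recycling endosome Rabs passed the threshold in limma, where 18.5% of all genes did. Of the 9, 2 had an unadjusted limma p under 0.05, as did 5311 of all 19938 genes. Rab11a, the central Rab of the recycling compartment that supplies class I molecules to phagosomes, read 808, 1047, 880 and 925 in bone marrow and 944, 940, 908 and 957 in spleen. Rab14 read 1779, 1802, 1778 and 1720 against 1731, 1668, 1651 and 1651, and Rab10 read 2563, 2733, 2253 and 2899 against 2529, 2217, 2606 and 2498. The arrays of the tissues overlapped in all 3 genes. Over the list, the 95% intervals reached from -0.40 to 0.60 on the log2 scale. The upper end belongs to Rab11b, which stood at 2067 and 1658 (0.32 ± 0.13, limma adjusted p = 0.12) and passed only without spleen replicate 1 (limma adjusted p = 0.0379). Of the remaining 4 Rabs, Rab23, a regulator of ciliary Hedgehog signalling, had a log2 fold change of -0.32 and passed without bone marrow replicate 2 or spleen replicate 2 (limma adjusted p = 0.0357 and 0.0244).

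**Figure D2:**
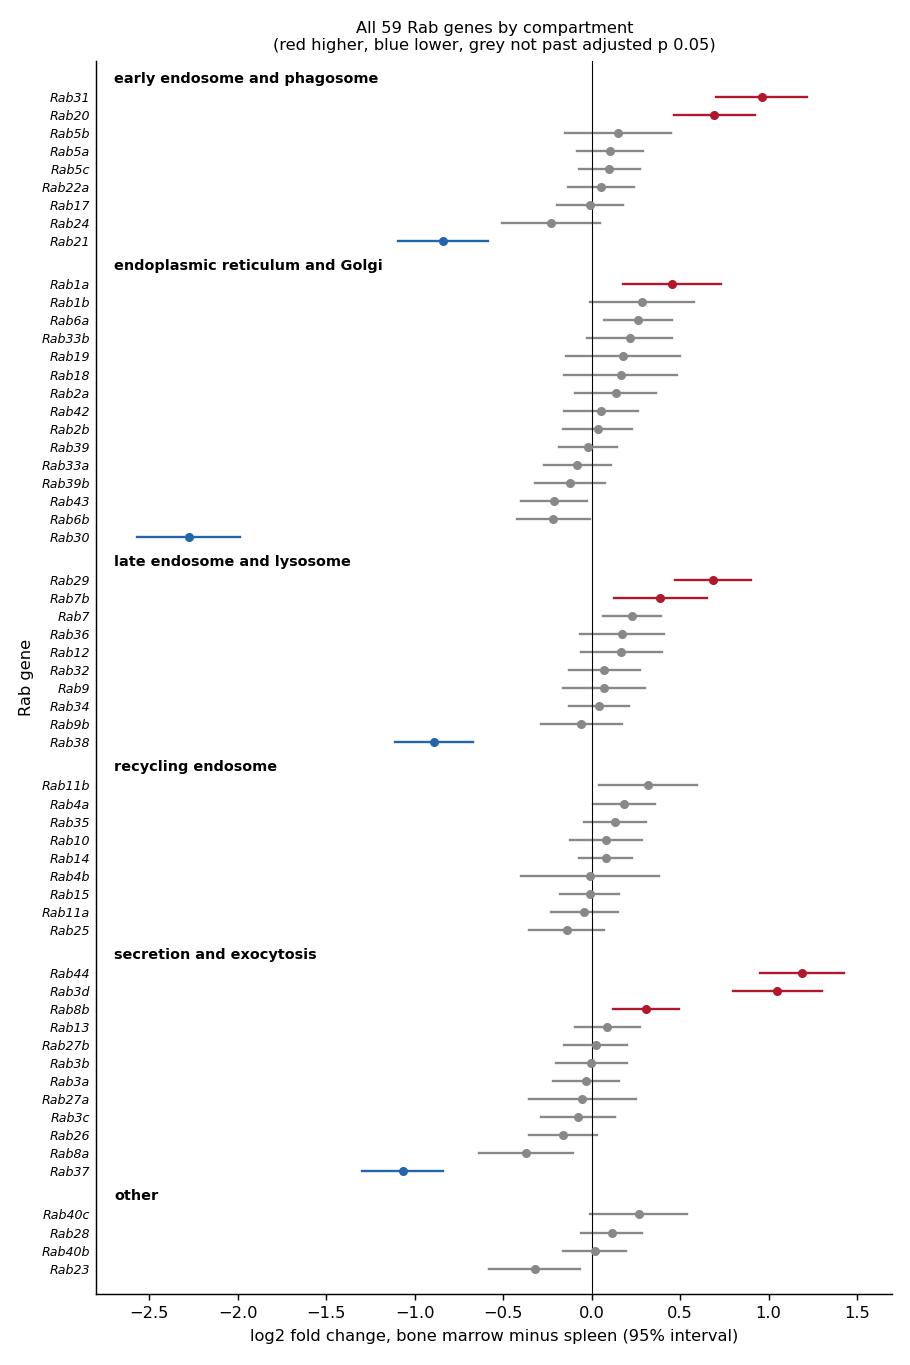
Log2 fold change, bone marrow minus spleen (horizontal axis), with its 95% interval from limma for all 59 Rab genes (vertical axis), grouped by the compartment each is best known for. Red marks the 8 genes that were higher, blue the 4 that were lower and grey the 47 that did not pass. The fold changes of the called genes run from Rab30 at the far left (-2.28) to Rab44 at the far right (1.19).

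Across the family, 47 Rab genes did not pass, and for 45 of them the whole 95% interval lay within 1.5-fold in either direction. The exceptions were Rab11b and Rab8a. A total of 18 Rab genes lay below the median gene on all 8 arrays, and their largest fold was 1.25. None of the 18 passed in limma. Rab4a and Rab23 were the 2 with an unadjusted limma p under 0.05, which 5311 of all 19938 genes had. Whether these 18 are expressed at all is unknown without a detection call. All 18 are among the 45, and their narrow intervals do not show equal expression, because fold changes are compressed at background. For Rab2a, Rab5b and Rab11b a second, dimmer probe set gave log2 fold changes of 0.005, 0.11 and 0.13, against 0.14, 0.15 and 0.32 for the one kept. Many Rabs resemble each other closely, and cross-hybridization between them was not tested because probe sequences were not used here.

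Spleen replicate 4 held the lowest of the 4 spleen values for 25 of 59 Rab genes (42.4%), against 27.1% of all genes. Rab4b, of early recycling, read 1702, 1498, 1433 and 849 in spleen replicates 1 to 4, Rab1b 1340, 1386, 1339 and 910, and Rab5b 2044, 1819, 1833 and 1233. In each of the 3 the last array was lower than all 7 others of the series. The mean correlation of this array with the others of its group was 0.9914, against 0.9931 to 0.9938 for the other spleen arrays, and the platelet gene Pf4 stood at 575 in it and at 65.9 to 90.2 in the other spleen arrays (302 to 1530 in bone marrow). Without it 14 Rab genes passed, the 12 above together with Rab43 and Rab8a.

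Relatives within the family were set against each other through the log2 ratio of both genes within each array, in 20 pairs of relatives. The level of such a ratio depends on the probes, so only its difference between tissues is read. The ratio of Rab3a to Rab3d was -2.29 to -1.69 in bone marrow and -1.02 to -0.56 in spleen, which makes a difference of -1.08. Because Rab3a lay below the median gene on all 8 arrays, this ratio mostly restates the change of Rab3d (1.05) and does not compare a pair known to be expressed. Rab32 to Rab38 differed by 0.97, Rab22a to Rab31 by -0.91 and Rab6a to Rab6b by 0.48, and in all 4 pairs the ratios of the tissues did not overlap. Each reached 0.0286, the smallest p that an exact two-sided permutation test of 4 arrays against 4 can give. After adjustment over the 20 pairs none passed (exact test, adjusted p = 0.143). How often the ratios of other gene pairs separate the tissues was not examined. In limma's fit of the ratios beside all genes, an alternative chosen after the data were seen, these 4 pairs and Rab8a to Rab8b (-0.68) passed, with adjusted p from 5.8e-05 to 0.0062. The 3 pairs among Rab5a, Rab5b and Rab5c differed by -0.04, 0.01 and 0.05, with 95% intervals that stayed within -0.33 and 0.34.

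**Figure D3:**
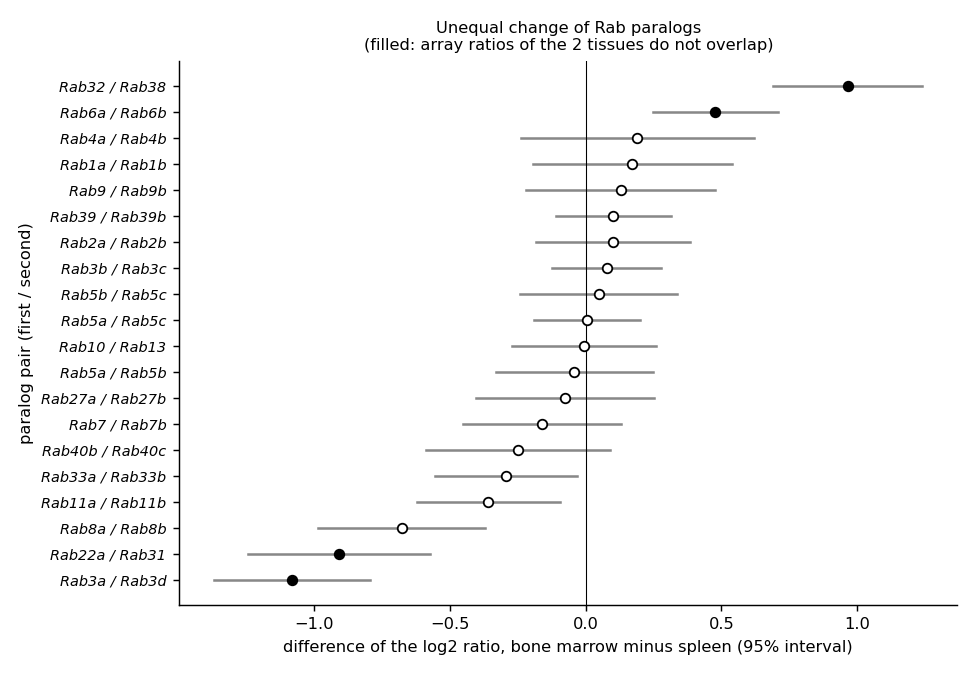
Difference between tissues of the log2 ratio of each paralog pair (horizontal axis, bone marrow minus spleen) with its 95% interval from limma, for 20 pairs (vertical axis, first gene over second). Filled points are the 4 pairs whose array ratios do not overlap between tissues, from -1.08 for Rab3a to Rab3d up to 0.97 for Rab32 to Rab38.

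Among genes that act on Rabs, the widest differences were the low levels of Tbc1d4 and Dennd3 in bone marrow, both wider than that of Rab30, and the high level of Rab3il1. Of 36 measured exchange factors, 5 rose and 8 fell in bone marrow relative to spleen, or 36.1% called against the 18.5% of all genes. Dennd3, an exchange factor of Rab12, read 225, 216, 238 and 290 in bone marrow and 1838, 1751, 1651 and 1283 in spleen. It was 6.71-fold lower (log2 difference -2.75 ± 0.12, SE, n = 4 arrays each, limma adjusted p = 8.9e-09), while Rab12 itself stood at 385 and 343 and did not pass. Dennd4a and Dennd4c, which both act on Rab10, went opposite ways, from 2932 in spleen to 1337 in bone marrow (the brightest of 9 probe sets) and from 359 to 730. Rab3il1, related to the Rab8 activator Rabin8, read 816, 1147, 919 and 607 in bone marrow and 180, 194, 169 and 189 in spleen, a 4.65-fold difference (2.22 ± 0.15, limma adjusted p = 3.4e-07). Dennd1a, which activates Rab35, was 2.21-fold higher and Rinl, of the Rab5 activator family, 1.90-fold lower. Rin3, an activator of Rab5 and Rab31 named after its values were seen, was 1.38-fold higher (0.47 ± 0.10, limma adjusted p = 0.0054).

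Among 36 Rab GTPase activating proteins, 7 were higher and 12 lower, so 52.8% were called, against 18.5% of all genes. The difference from that share was not tested for this or the other Rab cycle lists. Of the 19 called, 17 had tissues whose arrays did not overlap, as did 3379 of the 3681 called over all genes. With quantile normalization the split was 9 higher and 10 lower, and with median centring 7 higher and 8 lower. Tbc1d4, also known as AS160 and best known for acting on Rab10 in glucose transporter traffic, read 127, 133, 109 and 162 in bone marrow and 1145, 1076, 1056 and 1167 in spleen. It was 8.44-fold lower, the largest change in the Rab cycle lists (log2 difference -3.08 ± 0.11, SE, n = 4 arrays each, limma adjusted p = 1.4e-09). Tbc1d4 lay below the median gene on 3 of the bone marrow arrays, so the fold may be compressed. Its target Rab10 had a 95% interval from -0.12 to 0.28. Tbc1d10c, a haematopoietic member that acts on Rab35, was 3.27-fold lower, and Usp6nl, which acts on Rab5 and Rab43, 1.92-fold lower. Tbc1d2b was 2.27-fold higher (660 to 1495), followed by Tbc1d13 (373 to 530) and Evi5, which acts on Rab11 (294 to 412).

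Of 53 effectors, 9 were higher and 5 lower (26.4% called, against 18.5% of all genes). Ocrl, an inositol phosphatase recruited by several Rabs, read 550, 504, 497 and 448 in bone marrow and 154, 129, 194 and 150 in spleen, so it was 3.21-fold higher (log2 difference 1.68 ± 0.12, SE, n = 4 arrays each, limma adjusted p = 3.4e-07). Lrrk2, the kinase that phosphorylates Rab8 and Rab10 and is recruited by Rab29, read 400, 457, 532 and 597 in bone marrow and 1636, 1923, 1890 and 1582 in spleen. Lrrk2 was thus 3.57-fold lower (-1.84 ± 0.12, limma adjusted p = 2.4e-07) where Rab29 was higher. Lrrk2 has 2 probe sets, and averaging them gave a smaller log2 difference of -1.55. Its relative Lrrk1, which phosphorylates Rab7, was lower at 1146 against 1715. Rab11fip5 and Rab11fip4, both adaptors of Rab11, differed in direction, 1.82-fold higher and 1.81-fold lower. Rilpl2, a binder of phosphorylated Rabs, was 1.74-fold higher.

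Of the 7 measured genes of escort, prenylation and extraction, 1 was higher and 1 lower (28.6% called, against 18.5% of all genes). After quantile normalization 1 was higher and 2 lower, and after median centring 0 were higher and 1 lower. Gdi2, which extracts Rabs from membranes, stood at 1669 against 2216 in spleen (log2 difference -0.41 ± 0.11, SE, n = 4 arrays each, limma adjusted p = 0.019), and Rabac1, an acceptor for prenylated Rabs, at 2569 and 2078 (0.31 ± 0.09, limma adjusted p = 0.030). Neither held throughout. Gdi2 missed the threshold once bone marrow array 1 or 3, or spleen array 2 or 3, was removed (limma adjusted p from 0.0511 to 0.0635). Rabac1 missed it once bone marrow array 2, 3 or 4, or spleen array 2 or 4, was removed, after median centring and with mice blocked (limma adjusted p from 0.0535 to 0.081). Both subunits of the geranylgeranyl transferase that prenylates Rabs, Rabggta and Rabggtb, had log2 fold changes of 0.08 and -0.06 and did not pass.

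**Figure D4:**
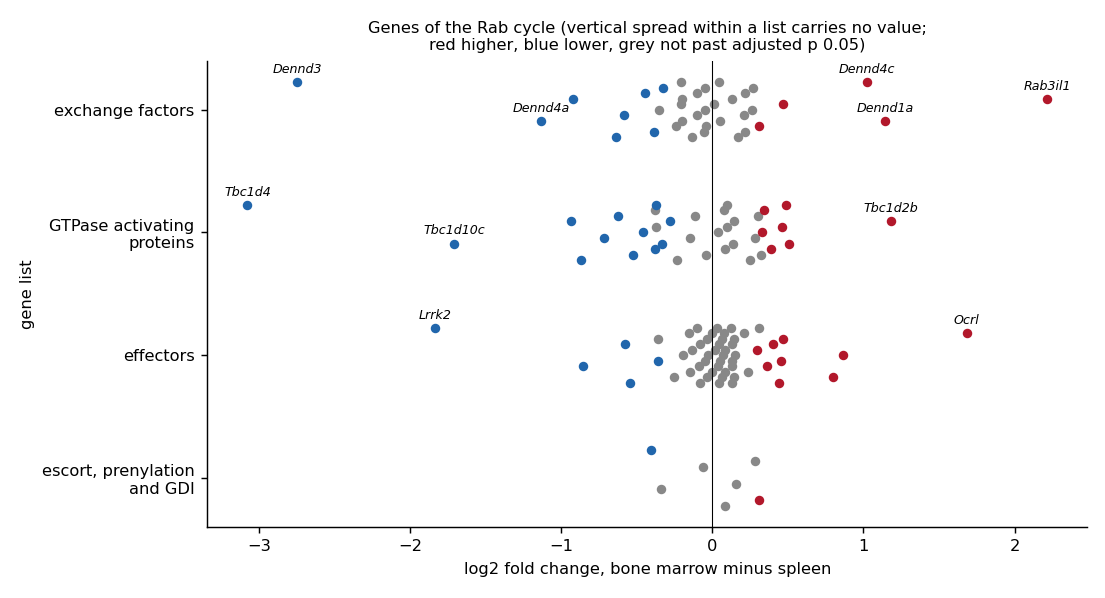
Log2 fold change, bone marrow minus spleen (horizontal axis), of the measured genes in 4 lists of the Rab cycle (vertical axis, with points spread within a list only to separate them). Red points were higher, blue lower and grey did not pass, and labelled genes are those named in the text with a change above 2-fold, from Tbc1d4 at -3.08 to Rab3il1 at 2.22.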

How the data were processed

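RNA of sorted dendritic cells from 4 mice was measured on 8 arrays, 4 per tissue. The deposited intensities are on a linear scale and came from the authors' use of Expression Console 1.4 (Affymetrix), per the submitters' processing notes. Its background correction, normalization and summarization were not given in the sources used here. Array medians over all probe sets lay between 125 and 135, whereas the median gene of an array is taken over the 19938 genes. Arrays have no read depth, so their number limits the precision. Of 35556 probe sets, 21789 had 1 gene symbol in the platform annotation, 1621 had several and 12146 were not listed; the brightest per gene left 19938 genes. Log2 intensities entered lmFit and eBayes of limma 3.58.1 (R 4.3.3), bone marrow minus spleen, with no filter and Benjamini-Hochberg adjustment over all genes at 0.05. SE is limma's moderated standard error, group levels are geometric means, and the procedure was tested on simulated data. Arrays with one number come from one mouse, per the description labels. Across genes, their departures from the tissue means had a pairing correlation r of 0.096, -0.088, -0.178 and -0.054 for replicates 1 to 4. The reported fit has no replicate block, and a blocked one was an alternative. Members and lists were chosen with earlier results of these data known. Named genes are all Rab members and, of each Rab cycle list, those called with the highest fold, at most 3 per direction; Rin3, Rabggta and Rabggtb fall outside it and were chosen after their values were seen. Marker genes are named as a check of the labels. The 20 paralog pairs were compared with an exact two-sided permutation test over arrays. Alternatives were quantile normalization, median centring, leaving out the dimmest 40% of genes, averaging probe sets, an intensity trend, array weights, the block and leaving out each array.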

Additional observations from a re-analysis of the deposited data

Results flagged for a closer look

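Of 160 groups of 4 arrays examined, for the 59 Rab genes and 21 named genes of the Rab cycle, 8 had 1 array whose gap to its nearest neighbour took a share of the group's range above Dixon's 95% critical value. Chance marks about 1 in 20 groups, which is the share seen here. In spleen, Rab1b (0.919) and Rab8a (0.856) were low and Rab39b (0.846) was high in replicate 4. Rab1a was low in spleen replicate 1 (0.843), and Rab25 (0.869) and Rab34 (0.866) were high in spleen replicate 2. In bone marrow, Rab43 was low in replicate 2 (0.901) and Rab38 in replicate 4 (0.897). Rab38 passed the threshold in every alternative run, whereas the calls of Rab1a, Rab8a and Rab43 changed in some. These shares of the range are given after each gene.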

How the results depend on the processing

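The number of Rab genes called was 12, and between 10 and 15 in the 15 alternatives, with 10 under the mouse as a replicate block (Rab7b and Rab8b lost) and 15 without the dimmest 40% of genes. Leaving out 1 array gave 10 to 14. Over all genes 3681 were called, 3144 to 3499 with 1 array left out and 3316 to 3963 otherwise. Exchange factors gave 12 to 15 calls, GTPase activating proteins 14 to 21 and effectors 13 to 15 over the alternatives. The escort and prenylation list had 2 calls, 3 with quantile normalization, without the dimmest 40% of genes and with array weights, 1 with median centring, 1 with the block, and 0 to 2 with 1 array left out. The paralog pairs had 0 calls in the exact test, also with any 1 array left out, and 5 in limma's fit of the ratios. In the exact test, 4 pairs at its smallest p of 0.0286 adjusted only to 0.143, so its 0 calls are no measure of stability. The sign-flip test of the pairs over 4 mice, the paired form, cannot go below 0.125. Of 1187 comparisons of a named gene with an alternative, 1147 kept their side of the threshold, 15 gained and 25 lost a call, and no called gene changed sign; 34 uncalled values near 0 did. Quantile normalization also brought in Rab6a, Rab7 and Rab8a. Background under dim Rabs cannot be read from these intensities.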
